A study of Mus musculus with 15 samples.

Results

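The plasminogen system and the serpins were followed through 9 genes, taken by symbol from the 26301 gene numbers in the count tables, of which 24191 had a symbol. The plasminogen activators were Plat and Plau, the receptor was Plaur, and the 6 serpins were Serpine2, Serpinf1, Serpina3n, Serpinb6a, Serping1 and Serpinh1. All 9 had a row in every library. The genes were selected with results of these libraries in view, and Serpine2 in particular was selected on its low level in JMJD1A(H1122A) cells against LacZ cells. Its values in the comparisons that use the JMJD1A(H1122A) libraries are therefore given as a description with no test. The LacZ libraries entered the selection of Serpine2 too, so its p-values in comparisons that use them are not independent of that choice. The p-values of the other members compare a difference with the spread between replicates and are not independent evidence for the choice of genes.

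The cells were 3T3-L1, a mouse preadipocyte line, on day 2 of differentiation with 1.67 μM insulin, 1 μM dexamethasone and 115 μg/mL IBMX in all 5 groups of 3 replicates. Control (sh-Empty) cells carried an empty hairpin vector, and JMJD1A-KD (sh-Jmjd1a) cells carried a retroviral hairpin against Jmjd1a (Kdm3a), which encodes a demethylase of histone H3 lysine 9. The rescue groups were sh-Jmjd1a cells that also expressed LacZ, hairpin-resistant JMJD1A(WT) or hairpin-resistant JMJD1A(H1122A), a mutant of the site that coordinates iron, so that all 3 rescue groups shared the hairpin. The lines were kept stable by antibiotic selection, nothing in the labels says that replicates came from separate infections or cultures, and p-values then measure only the spread between these libraries, which may be technical.

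Plasminogen is made mainly in the liver and is cut to plasmin, a protease of fibrin and matrix, by the tissue-type activator (Plat) and the urokinase-type activator (Plau), the latter held at the cell surface by Plaur. Serpins are a superfamily that mostly trap serine proteases through an exposed loop that the protease cuts, but some members, such as the collagen chaperone Serpinh1 and the secreted factor Serpinf1, do not inhibit proteases. In adipose tissue the system acts on the pericellular matrix that fat cells remodel as they differentiate.

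Total counts ran from 11437058 to 25523148 per library with a median of 12916162, and JMJD1A(WT) replicate 3 had the highest total. Kdm3a averaged 174 ± 7.35 CPM (counts scaled to library size, mean ± SD of 3 replicates) in sh-Empty cells, 131 ± 5.73 in sh-Jmjd1a cells and 119 ± 2.66 in LacZ cells, against 1696 ± 69 with JMJD1A(WT) and 2212 ± 90.1 with JMJD1A(H1122A), and the counts do not separate the introduced from the endogenous transcript. The knockdown was a log2 fold change of -0.42 (SE 0.048, edgeR adjusted p = 2.91e-08). The 11 adipocyte markers summed to 5390 to 5480 CPM in sh-Empty, 2710 to 2860 in sh-Jmjd1a, 3430 to 3520 in LacZ, 3950 to 4330 in JMJD1A(WT) and 2680 to 2780 in JMJD1A(H1122A) libraries. All 11 fell in the knockdown, beside 23.9% of all genes, and all 11 rose with JMJD1A(WT) against LacZ, beside 4.98%. With JMJD1A(H1122A) all 11 fell against JMJD1A(WT), beside 11.7%, and 9 fell against LacZ, beside 4.46%. The 11 preadipocyte and fibroblast markers summed to 21100 to 21400, 32500 to 33400, 37600 to 39000, 38200 to 40000 and 38600 to 40100 CPM in the same order of groups, sums made up mostly of Fn1, Vim and the collagen genes Col1a1, Col1a2 and Col3a1. In the knockdown 10 of these markers were tested, of which 7 rose and 2 fell, beside 22.3% and 23.9% of all genes. The 2 that fell were Dlk1, a marker of preadipocytes, from 842 to 502 CPM, and Ly6a. With JMJD1A(WT) against LacZ 4 rose, Dlk1 and Ly6a included, and 1 fell, beside 4.98% and 4.52%. With JMJD1A(H1122A) 4 rose and 3 fell against JMJD1A(WT), beside 12.1% and 11.7%, and 4 rose and 1 fell against LacZ, beside 4.78% and 4.46%. Markers of macrophages and leukocytes summed to at most 5.56 CPM, with Tyrobp at 0 counts throughout, those of endothelium to at most 1.04 and those of epithelium to at most 0.781. These marker levels moved with the groups, and the part of differentiation in the results below was not tested. In such bulk libraries, fewer cells of a type and less RNA per cell cannot be told apart.

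In the knockdown the tested members were mostly higher than in sh-Empty cells, with Plat called among the activators and Plau not. Of the 9 members, 8 had enough counts to be tested in each comparison. In sh-Jmjd1a against sh-Empty cells, 7 of the 8 were called higher (Serpina3n, Plaur, Serpinf1, Serpine2, Plat, Serpinb6a and Serpinh1), where 22.3% of 12272 genes were called higher, and 0 were called lower, where 23.9% of all genes were. All 8 fold changes were above 0, so the count of lower members was also 0 at an unadjusted p under 0.05 and by DESeq2, with a median log2 fold change of 0.60 beside -0.003 over all genes tested. Calls are by edgeR's quasi-likelihood test at a Benjamini-Hochberg adjusted p under 0.05 over all genes tested.

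Among the rescue groups the members went in both directions. With JMJD1A(WT) against LacZ, Serpina3n was called higher, 1 of 8, beside 4.98% of 12557 genes, and Serpinh1 was called lower, 1 of 8, beside 4.52%. With JMJD1A(H1122A) against JMJD1A(WT), Serpinf1, Serpinh1, Serpinb6a and Plat were called higher, 4 of the 7 members other than Serpine2, beside 12.1% of all genes, and Serpina3n was called lower, 1 of 7, beside 11.7%. With JMJD1A(H1122A) against LacZ, Serpinf1 and Plat were called higher, 2 of the same 7, beside 4.78% of all genes, and Serpina3n was called lower, 1 of 7, beside 4.46%. Serpine2 is left out of the counts of 7 because it was selected on its level in the JMJD1A(H1122A) libraries. It is among the 8 of JMJD1A(WT) against LacZ, where it was not called, although the LacZ libraries entered its selection. The 3 rescue comparisons share libraries, so their calls are not independent of each other. The member medians on the log2 scale were -0.07 with JMJD1A(WT) against LacZ and, without Serpine2, 0.15 with JMJD1A(H1122A) against JMJD1A(WT) and 0.04 against LacZ, beside 0.00, -0.001 and 0.001 over all genes.

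**Figure D1:**
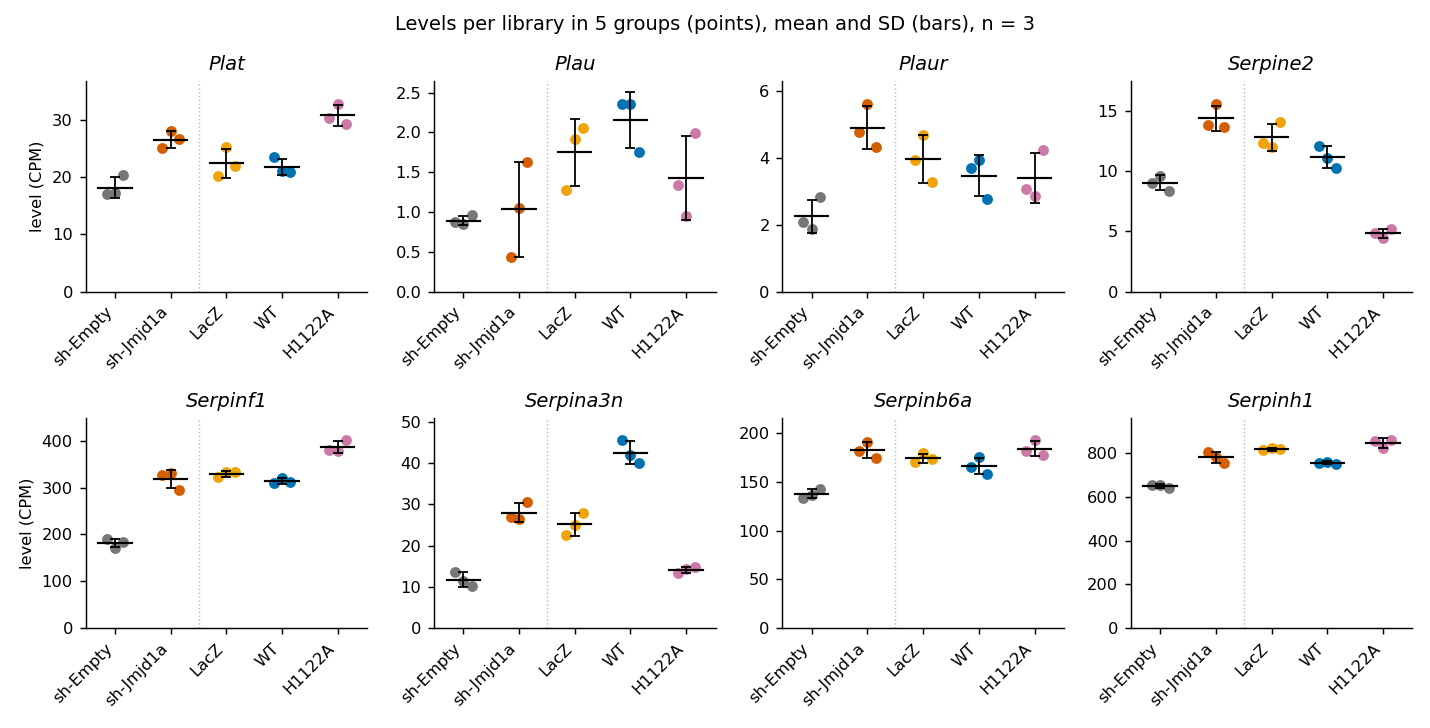
Levels of the 8 detected members in CPM (y axis, from 0) in the 15 libraries by group (x axis), with points for libraries and bars for the mean and SD of 3; the dotted line parts the knockdown set from the rescue set. Serpine2 is lowest with JMJD1A(H1122A), at 4.40 to 5.19 CPM, and Serpina3n is highest with JMJD1A(WT), at 40.1 to 45.5 CPM.

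Per kilobase of the exon union, a rough scale to compare levels between genes, the collagen chaperone Serpinh1 was the most abundant member. It had a mean of 316 CPM per kb over the 15 libraries, followed by Serpinf1 at 130. Mean CPM without division by length gave the same order of members. Serpinb6a had 31.2, Serpina3n 11.8 and Plat 9.47 CPM per kb. Serpine2 (2.72), Plaur (2.58) and Plau (0.62) were far lower, so that the receptor and the urokinase-type activator rest on few counts, 22 to 71 and 5 to 45 per library. Plg, the gene of plasminogen itself, had 3 counts in all 15 libraries together.

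Plat, the tissue-type activator (mm9 chr8:23868216-23893319, plus strand), had 17, 17.2 and 20.3 CPM in sh-Empty and 25.1, 28.0 and 26.6 CPM in sh-Jmjd1a cells. In the rescue set it had 20.2, 25.2 and 22.0 CPM with LacZ, 23.5, 21.0 and 21.0 with JMJD1A(WT), and 30.3, 32.9 and 29.3 with JMJD1A(H1122A). Every knockdown library lay above every control library, LacZ and JMJD1A(WT) overlapped, and the 3 JMJD1A(H1122A) libraries were the highest of all 15. Plat rose in sh-Jmjd1a cells by a log2 fold change of 0.52 (SE 0.097, edgeR adjusted p = 5.66e-05). Under JMJD1A(H1122A) it was higher by 0.51 relative to JMJD1A(WT) (SE 0.091, edgeR adjusted p = 2.81e-05) and relative to LacZ by 0.46 (SE 0.093, edgeR adjusted p = 0.000662). JMJD1A(WT) against LacZ gave -0.05, with a 95% interval from -0.24 to 0.14.

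Plau, the urokinase-type activator (chr14:21655884-21662610, plus strand), had 0.869, 0.851 and 0.959 CPM in sh-Empty and 0.433, 1.04 and 1.62 CPM in sh-Jmjd1a cells. With LacZ it had 1.27, 1.92 and 2.06, with JMJD1A(WT) 2.36, 2.36 and 1.75, and with JMJD1A(H1122A) 1.34, 0.953 and 1.99 CPM. Neighbouring groups overlapped along the whole order of means. None of the 4 comparisons passed the test, and their intervals were wide. They ran from -0.71 to 1.15 on the log2 scale in the knockdown comparison and from -1.23 to 0.10 with JMJD1A(H1122A) against JMJD1A(WT). Changes within those ranges remain compatible with these low counts. The knockdown value of 0.22 turned to -0.26 without sh-Jmjd1a replicate 3, the highest of its group.

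Plaur, the urokinase receptor (chr7:25247519-25260892, plus strand), had 2.09, 1.87 and 2.81 CPM in sh-Empty and 4.77, 5.62 and 4.33 CPM in sh-Jmjd1a cells. The rescue libraries ran from 2.76 to 4.69 CPM, with means of 3.97 for LacZ, 3.46 for JMJD1A(WT) and 3.39 for JMJD1A(H1122A). The knockdown groups did not overlap, while the 3 rescue groups did. Plaur rose in sh-Jmjd1a cells 2.10-fold, a log2 fold change of 1.07 (SE 0.24, edgeR adjusted p = 0.00047). JMJD1A(WT) against LacZ gave -0.26 (95% interval -0.71 to 0.18) and JMJD1A(H1122A) against JMJD1A(WT) gave 0.02 (-0.46 to 0.50), neither past the threshold.

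Serpine2 (chr1:79790772-79855271, minus strand) encodes protease nexin-1, a secreted inhibitor of thrombin and of both plasminogen activators. It had 9.04, 9.61 and 8.38 CPM in sh-Empty and 13.8, 15.6 and 13.7 CPM in sh-Jmjd1a cells. In the rescue set it had 12.3, 12 and 14.1 CPM with LacZ and 12.1, 11.1 and 10.2 with JMJD1A(WT), but 4.88, 4.40 and 5.19 with JMJD1A(H1122A). The mutant libraries were the lowest of all 15, below the control libraries too, which came next in the order of groups. The control libraries lay below those of JMJD1A(WT) without overlap. JMJD1A(WT) overlapped with LacZ, and LacZ with sh-Jmjd1a. The rise in sh-Jmjd1a cells was 1.59-fold, a log2 fold change of 0.67 (SE 0.13, edgeR adjusted p = 9.13e-05). JMJD1A(WT) against LacZ gave -0.22 (95% interval -0.47 to 0.03, edgeR adjusted p = 0.326). As a description, JMJD1A(H1122A) cells were at -1.42 against LacZ and -1.19 against JMJD1A(WT) on the log2 scale, levels 2.67-fold and 2.29-fold lower. These rest on 60 to 62 counts in each JMJD1A(H1122A) library against 141 to 263 in the others of the rescue set.

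Serpinf1 (chr11:75223271-75236203, minus strand) encodes pigment epithelium-derived factor, a secreted serpin of preadipocytes and fat that does not inhibit proteases. It had 190, 172 and 184 CPM in sh-Empty and 327, 332 and 295 CPM in sh-Jmjd1a cells. With LacZ it had 321, 333 and 333 CPM, with JMJD1A(WT) 310, 320 and 311, and with JMJD1A(H1122A) 379, 379 and 401. The sh-Empty libraries stood below all others and the JMJD1A(H1122A) libraries above all others, and sh-Jmjd1a, LacZ and JMJD1A(WT) lay together between them. Serpinf1 rose in sh-Jmjd1a cells 1.74-fold, a log2 fold change of 0.80 (SE 0.048, edgeR adjusted p = 7.56e-14). It was higher under JMJD1A(H1122A), by 0.29 against JMJD1A(WT) (SE 0.038, edgeR adjusted p = 3.46e-08) and by 0.23 against LacZ (SE 0.038, edgeR adjusted p = 3.56e-05). Against LacZ, JMJD1A(WT) gave -0.07 (95% interval -0.15 to 0.01), which did not pass the test although the libraries did not overlap.

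Serpina3n (chr12:105644939-105652539, plus strand) is a secreted, acute-phase and glucocorticoid-responsive mouse counterpart of alpha-1-antichymotrypsin. It had 13.6, 11.5 and 10.3 CPM in sh-Empty and 27.0, 26.3 and 30.7 CPM in sh-Jmjd1a cells. With LacZ it had 22.6, 24.9 and 28.0 CPM, with JMJD1A(WT) 45.5, 42.0 and 40.1, and with JMJD1A(H1122A) 13.4, 14.3 and 14.8. JMJD1A(WT) libraries were the highest of all 15, and JMJD1A(H1122A) libraries overlapped with the sh-Empty libraries at the bottom. Serpina3n rose in sh-Jmjd1a cells 2.39-fold, a log2 fold change of 1.25 (SE 0.11, edgeR adjusted p = 2.16e-10), and it rose again when JMJD1A(WT) was added back, by 0.75 against LacZ (SE 0.082, edgeR adjusted p = 1.98e-09). With JMJD1A(H1122A) it stood 2.99-fold below JMJD1A(WT), a log2 fold change of -1.58 (SE 0.095, edgeR adjusted p = 7.02e-18), and below LacZ, at -0.83 (SE 0.11, edgeR adjusted p = 1.64e-07). Of the 8 detected members, it alone was called in all 4 comparisons. The Serpina3 genes form a cluster of close copies, so reads may have been shared among them and its level is uncertain to that extent.

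Serpinb6a (chr13:34009787-34094663, minus strand) encodes an intracellular inhibitor of trypsin-like proteases and cathepsin G. It had 134, 137 and 143 CPM in sh-Empty and 182, 191 and 175 CPM in sh-Jmjd1a cells, groups that did not overlap. The rescue libraries lay between 158 and 192 CPM, lowest with JMJD1A(WT). Serpinb6a rose in sh-Jmjd1a cells by a log2 fold change of 0.39 (SE 0.047, edgeR adjusted p = 7.68e-08), and the difference of JMJD1A(H1122A) from JMJD1A(WT) was 0.15 (SE 0.046, edgeR adjusted p = 0.0132), a call lost without JMJD1A(H1122A) replicate 2 or without JMJD1A(WT) replicate 3, where it was 0.11 with adjusted p of 0.122 and 0.126. Its exons overlap those of Nqo2, Ripk1 and 1110046J04Rik on the other strand. The strand setting of the counting is not given in the sources used here, so reads of these genes may be included.

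Serpinh1 (chr7:106493885-106501740, minus strand) encodes HSP47, a chaperone of procollagen in the endoplasmic reticulum. It had 656, 653 and 640 CPM in sh-Empty and 804, 782 and 754 CPM in sh-Jmjd1a cells. With LacZ it had 812, 824 and 816 CPM, with JMJD1A(WT) 755, 761 and 748, and with JMJD1A(H1122A) 857, 821 and 858. The order of the group means was sh-Empty, JMJD1A(WT), sh-Jmjd1a, LacZ and JMJD1A(H1122A), with overlap between JMJD1A(WT) and sh-Jmjd1a and between LacZ and JMJD1A(H1122A). The differences were small but exceeded the spread between replicates, with a log2 fold change of 0.25 in sh-Jmjd1a cells (SE 0.037, edgeR adjusted p = 1.97e-06), -0.12 with JMJD1A(WT) against LacZ (SE 0.033, edgeR adjusted p = 0.0171) and 0.16 with JMJD1A(H1122A) against JMJD1A(WT) (SE 0.033, edgeR adjusted p = 0.000257). The fall with JMJD1A(WT) lost its call when LacZ replicate 2 or 3, or replicate 1 or 3 of JMJD1A(WT), was left out, with values of -0.12 to -0.11.

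Serping1 (chr2:84605544-84615601, minus strand), the inhibitor of complement C1, was listed at 0 counts in all 15 libraries. Counting error alone would allow up to 3 counts, which is 0.118 to 0.262 CPM. Its neighbours on the chromosome were counted, with 181 to 343 counts of Clp1 and 37 to 91 of Ypel4 per library, and the complement proteases it controls were present, with 120 to 381 counts of C1ra and 205 to 559 of C1s1. Mia3, a gene of collagen export that most cells use, was also listed at 0 in every library, so the 0 of Serping1 is reported as listed and not as absence of its RNA.

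**Figure D2:**
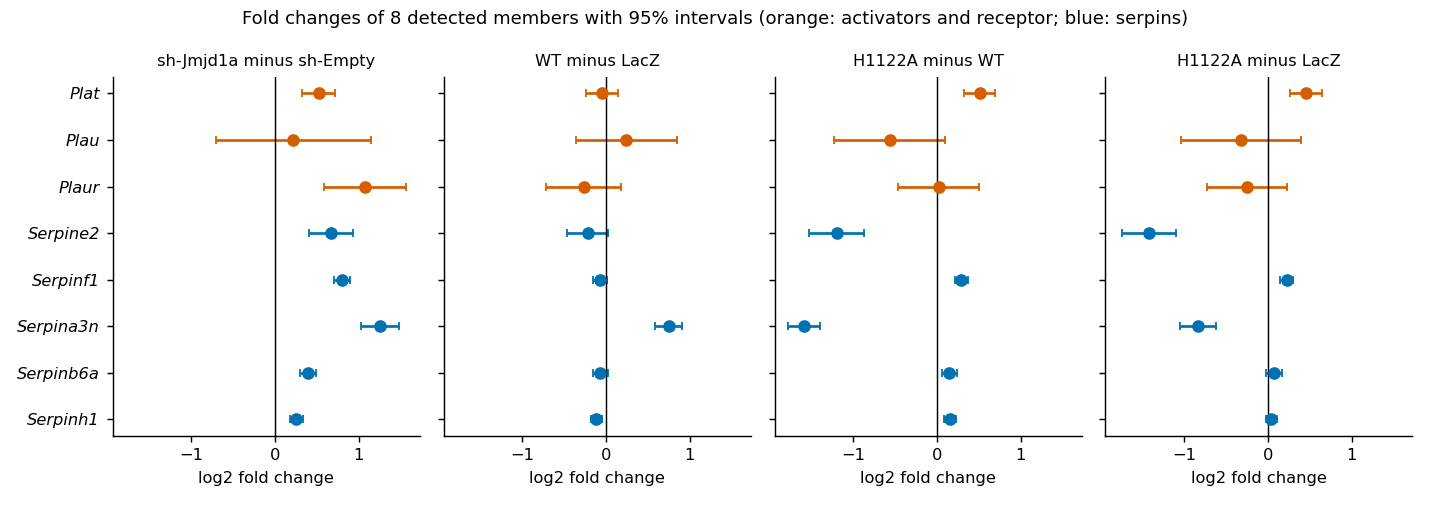
Log2 fold changes of the 8 detected members (y axis) in the 4 comparisons (panels, x axis in log2 units), with 95% intervals from the edgeR fits, activators and receptor in orange and serpins in blue. Serpine2 was selected on its JMJD1A(H1122A) libraries. Its intervals in the panels with those libraries show the spread between replicates and are not a test. All values in the knockdown panel lie above 0, from 0.22 to 1.25, while Serpina3n and Serpine2 lie at -1.58 and -1.19 in the panel of JMJD1A(H1122A) minus JMJD1A(WT), the latter as a description with no test.

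The promoter sequences of Serpine2 and Serpina3n, the members with the lower levels under JMJD1A(H1122A), and of Serpinf1, which was higher, are shown to set their starts side by side. RefSeq windows of the 250 bases before the start (table of GRCm38.p6) were found for 6 of the 9 members. The stretches printed stop before any annotated transcript and were placed on mm9 by exact match, at chr1:79855272-79855490 on the minus strand for Serpine2, chr12:105644668-105644917 on the plus strand for Serpina3n and chr11:75236204-75236375 on the minus strand for Serpinf1. Capitals mark matches, on either strand, to the GC box GGGCGG, the CCAAT box or the hexamer AGAACA of glucocorticoid response elements.
Serpine2: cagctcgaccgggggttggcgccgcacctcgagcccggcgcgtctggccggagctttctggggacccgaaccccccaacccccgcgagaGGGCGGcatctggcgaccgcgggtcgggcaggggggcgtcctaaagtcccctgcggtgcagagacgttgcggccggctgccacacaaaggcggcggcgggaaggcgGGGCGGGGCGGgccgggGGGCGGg
Serpina3n: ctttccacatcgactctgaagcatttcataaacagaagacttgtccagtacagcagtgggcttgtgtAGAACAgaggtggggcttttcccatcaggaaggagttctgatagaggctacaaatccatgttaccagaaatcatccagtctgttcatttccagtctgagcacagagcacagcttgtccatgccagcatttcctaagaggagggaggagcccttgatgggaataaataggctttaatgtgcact
Serpinf1: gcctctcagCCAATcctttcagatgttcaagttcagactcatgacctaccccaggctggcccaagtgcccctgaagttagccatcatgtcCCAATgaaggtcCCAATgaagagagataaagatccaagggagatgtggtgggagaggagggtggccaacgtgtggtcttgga
The Serpine2 window was 78.8% C and G over its 250 bases and held 6 matches to GGGCGG, of which 2 lie past the printed stretch and 2 overlap, where 32.7% of 32851 promoter windows held at least 1 match. The Serpina3n window was 46.4% C and G, beside a median of 52.4% over all windows, with no GC or CCAAT box and 1 match to AGAACA, a hexamer found in 16.1% of windows. The Serpinf1 window was 51.6% C and G and held 3 CCAAT matches, found in 33.8% of windows. None of these 3 windows held the TATA box TATAAA (in 12.4% of all windows), the AP-1 site TGANTCA (6.75%), the C/EBP-type site TTGCNNAA (9.56%) or the cAMP response element TGACGTCA (1.55%). The matches are letters in a window and were not tested against the expression values.

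The knockdown set and the rescue set both compare cells low in JMJD1A with cells that have more of it, without sharing libraries, so the differences sh-Jmjd1a minus sh-Empty and LacZ minus JMJD1A(WT) were compared directly. The knockdown difference was the larger for Serpina3n, Serpinf1, Plat, Serpine2, Serpinb6a and Serpinh1, 6 of 8 members called higher, beside 17% of 12758 genes called higher and 15.7% called lower, and 0 members were called lower, with all 8 values above 0 (that of Plau, 0.47, turned to -0.02 without sh-Jmjd1a replicate 3). For Serpina3n the 2 differences had opposite signs, 1.25 and -0.75, and lay 2.01 apart on the log2 scale (SE 0.14, edgeR adjusted p = 2e-16). Serpinf1 was 0.74 apart (SE 0.06, edgeR adjusted p = 5.29e-14) and Plat 0.49 (SE 0.14, edgeR adjusted p = 0.00462). Serpinb6a and Serpinh1 were 0.33 and 0.15 apart (edgeR adjusted p = 7.28e-05 and 0.0127). For Serpine2 the value of 0.46 (SE 0.18, edgeR adjusted p = 0.0402) depended on single libraries and settings. It also uses the LacZ libraries that entered the selection of Serpine2, so this call is not independent of that choice. For Plaur 0.82 (SE 0.33) just missed the threshold with an edgeR adjusted p of 0.0525. The sets also differed in the level of Kdm3a given above and in whether a second vector was present, and their part in these differences was not tested.

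**Figure D3:**
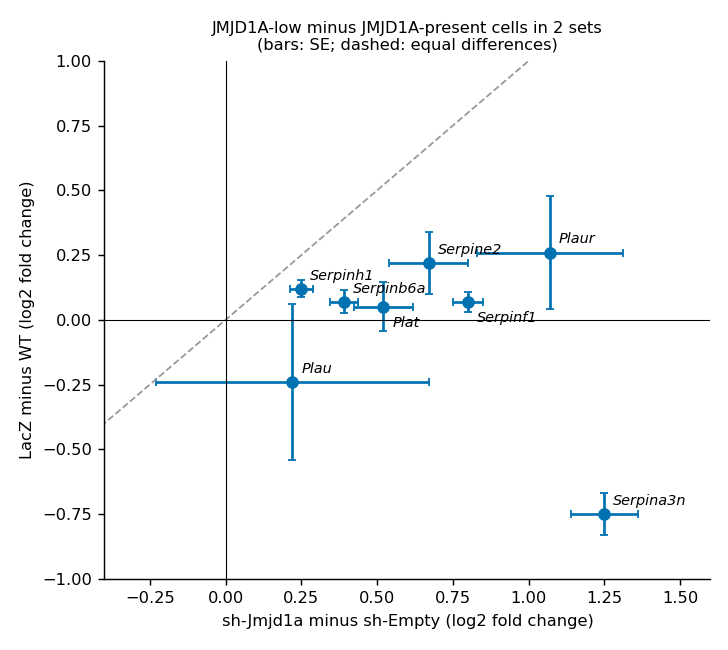
Log2 difference between JMJD1A-low and JMJD1A-present cells in the knockdown set (x axis) and in the rescue set (y axis) for the 8 detected members, with SE bars and a dashed line of equal differences. Most genes lie to the right of the line and near 0 on the y axis, and Serpina3n lies at 1.25 and -0.75, with opposite signs in the 2 sets.

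Of the other genes named as serpins, 58 were followed, of which 24 had 0 counts throughout and 12 could be tested in at least 1 comparison. Of 8 tested in the knockdown set, 5 rose in sh-Jmjd1a cells, beside 22.3% of all genes, with a median log2 fold change of 1.00 over the 8 beside -0.003 over all genes. Serpina3c, Serpina3g, Serpina3k and Serpina3m, all among the 8, belong to the cluster of close copies that holds Serpina3n. Reads shared within that cluster may enter this count and median, which are then not separate from the rise of Serpina3n. The risers were of low abundance, Serpina3c at 2.13, Serpina3k at 1.56, Serpini1, the neuronal tissue-type activator inhibitor, at 1.43, Serpina3m at 1.29 and Serpinb8 at 0.67 on the log2 scale, each with a mean under 6 CPM in every group save Serpina3m.

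With JMJD1A(WT) against LacZ, 2 of 12 tested other serpins rose, beside 4.98% of all genes, Serpinb9, an intracellular inhibitor of granzyme B, by 0.40 (SE 0.11, edgeR adjusted p = 0.00784) and Serpina3m by 0.60 (SE 0.19, edgeR adjusted p = 0.0328). Both fell with JMJD1A(H1122A) against JMJD1A(WT), where 11.7% of all genes did, Serpina3m by 0.87 (SE 0.20, edgeR adjusted p = 0.00104) and Serpinb9 by 0.51 (SE 0.11, edgeR adjusted p = 0.000379). Serpina3m, a neighbour of Serpina3n in the same gene cluster, had means of 1.97, 4.89, 5.45, 8.34 and 4.49 CPM in sh-Empty, sh-Jmjd1a, LacZ, JMJD1A(WT) and JMJD1A(H1122A) cells, highest with JMJD1A(WT) like Serpina3n. Its LacZ libraries varied (SD 2.26 CPM) and overlapped those of JMJD1A(WT). Serpina3c had close means in sh-Jmjd1a, JMJD1A(WT) and JMJD1A(H1122A) cells, at 4.14 ± 0.765, 3.96 ± 0.379 and 3.76 ± 0.439 CPM. With JMJD1A(WT) against LacZ it lay at 0.52 and was not called (edgeR adjusted p = 0.167). Serpina3g and Serpina3h lay at -0.85 and -1.16 with JMJD1A(WT) against LacZ, neither called. Shared reads within the cluster bear on all of these.

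**Figure D4:**
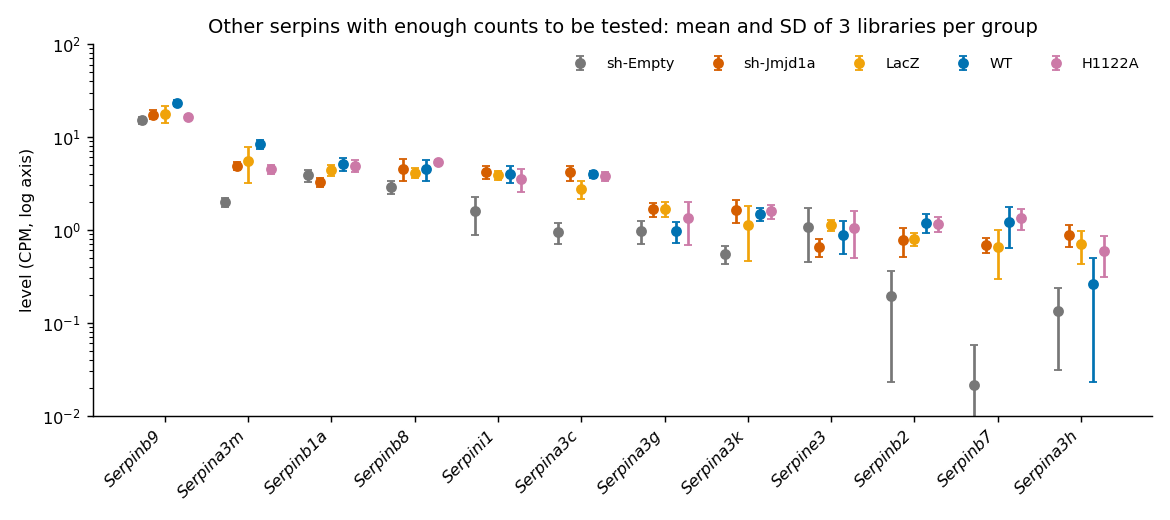
Mean levels in CPM (y axis, log scale) with SD of 3 libraries per group for the 12 other serpins that could be tested (x axis); a bar that would pass 0 runs off the foot of the axis. Serpinb9 is the most abundant of them, at means of 15.1 CPM in sh-Empty and 16.4 to 23.2 CPM in the other groups.

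Among 21 genes of plasminogen binding, urokinase receptor partners and serpin clearance, 15 were tested; changes of these and the following partner genes are log2 fold changes. In sh-Jmjd1a cells 9 rose and 2 fell, beside 22.3% and 23.9% of all genes, with a median of 0.22 beside -0.003 over all genes. Itgb3, the vitronectin receptor subunit, rose by 1.01 (SE 0.052, edgeR adjusted p = 1.43e-15) to 149 ± 4.67 CPM, and Vldlr, which takes up complexes of serpins and proteases, rose by 0.66 (SE 0.044, edgeR adjusted p = 4.66e-13) to 219 ± 5.54 CPM. Lrpap1, the chaperone of that receptor family, fell by 0.65 (SE 0.053, edgeR adjusted p = 4.44e-11), and Plgrkt, a plasminogen receptor, fell by 0.39 (SE 0.078, edgeR adjusted p = 0.000131). With JMJD1A(WT) against LacZ 6 of the 15 fell, beside 4.52% of all genes, Vldlr by 0.31 (edgeR adjusted p = 3.49e-07) and Itgb3 by 0.17 (edgeR adjusted p = 0.0176) among them. With JMJD1A(H1122A) against JMJD1A(WT) 7 rose, beside 12.1%, Vldlr by 0.43 (edgeR adjusted p = 5.55e-11) and Anxa2, a plasminogen-binding annexin, by 0.24 (edgeR adjusted p = 3.48e-06). With JMJD1A(H1122A) against LacZ 2 rose and 2 fell, beside 4.78% and 4.46%.

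Of 23 genes of coagulation and its receptors, 8 were tested in the knockdown set, where 7 rose and Gas6 fell, beside 22.3% and 23.9% of all genes. Pros1, the anticoagulant protein S, rose by 0.86 (SE 0.061, edgeR adjusted p = 1.68e-12) from 43.4 to 79.6 CPM, and F8 rose by 0.44 (SE 0.15, edgeR adjusted p = 0.0196). The thrombin receptor F2r, whose protease Serpine2 inhibits, rose by 0.37 (edgeR adjusted p = 3.66e-05). Gas6, a ligand of TAM receptors at 1930 CPM in sh-Empty cells, fell by 0.41 (SE 0.039, edgeR adjusted p = 8.37e-10). In the rescue set 9 were tested. With JMJD1A(WT) against LacZ 2 rose, F13a1 and Gas6, and 1 fell, beside 4.98% and 4.52% of all genes, and with JMJD1A(H1122A) against JMJD1A(WT) F3 and Gas6 rose and F13a1 fell, beside 12.1% and 11.7%. With JMJD1A(H1122A) against LacZ F3 and Gas6 rose, beside 4.78%. F13a1, a subunit of the fibrin-crosslinking factor XIII, had means of 0.255 CPM with LacZ, 1.99 with JMJD1A(WT) and 0.0813 with JMJD1A(H1122A), and was called in both comparisons (edgeR adjusted p = 9.06e-06 and 2.04e-07) from at most 47 counts in a library. Gas6 rose by 0.10 with JMJD1A(WT) against LacZ (edgeR adjusted p = 0.0387). F3, tissue factor, fell by 0.26 with JMJD1A(WT) against LacZ (SE 0.038, edgeR adjusted p = 2.22e-06) and rose by 0.37 with JMJD1A(H1122A) against JMJD1A(WT) (SE 0.038, edgeR adjusted p = 1.32e-10). F2, the gene of prothrombin, had 3 counts in all libraries together.

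Of 25 genes of trypsin-like proteases and of small protease inhibitors, 10 were tested in the knockdown set, with 6 that rose and 1 that fell, beside 22.3% and 23.9% of all genes. In the rescue set 11 were tested, of which 1 rose and 3 fell with JMJD1A(WT) against LacZ, beside 4.98% and 4.52%. With JMJD1A(H1122A) 3 rose and 1 fell against JMJD1A(WT), beside 12.1% and 11.7%, and 1 rose and 2 fell against LacZ, beside 4.78% and 4.46%. Prss23 rose by 0.42 with JMJD1A(H1122A) against JMJD1A(WT) (edgeR adjusted p = 2.21e-07). In sh-Jmjd1a cells Pi15, a secreted CAP-domain protein named as a peptidase inhibitor, rose by 1.74 (SE 0.054, edgeR adjusted p = 1.04e-19) from 87.0 to 292 CPM. Against LacZ, at 348 CPM, Pi15 fell by 0.33 with JMJD1A(WT) (edgeR adjusted p = 6.24e-08), to 277 CPM. With JMJD1A(H1122A) it fell against LacZ by 0.27 (edgeR adjusted p = 1.17e-05), to 290 CPM. Hgf, a growth factor related to plasminogen, rose in sh-Jmjd1a cells by 1.35 (SE 0.091, edgeR adjusted p = 7.6e-13). Slpi, an inhibitor of leukocyte elastase, fell by 0.81 (SE 0.20, edgeR adjusted p = 0.00133) in sh-Jmjd1a cells, rose by 1.69 with JMJD1A(WT) against LacZ (SE 0.14, edgeR adjusted p = 4.41e-13) and fell by 2.48 with JMJD1A(H1122A) against JMJD1A(WT) (SE 0.16, edgeR adjusted p = 1.29e-16). Slpi thus moved in opposite directions in the knockdown and with JMJD1A(WT), where Serpina3n rose in both.

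Of 12 complement genes tied to Serping1, 8 were tested, and in sh-Jmjd1a cells 1 rose and 2 fell, beside 22.3% and 23.9% of all genes. With JMJD1A(WT) against LacZ 2 rose and 1 fell, beside 4.98% and 4.52%. With JMJD1A(H1122A) 1 rose and 2 fell against JMJD1A(WT), beside 12.1% and 11.7%, and 1 rose and 1 fell against LacZ, beside 4.78% and 4.46%. C3 fell in sh-Jmjd1a cells by 1.63 (SE 0.036, edgeR adjusted p = 8.12e-24), from 2140 to 699 CPM, and C4b, which C1s cleaves, fell by 0.93 (SE 0.082, edgeR adjusted p = 1.91e-10), while C1ra rose by 0.37 (SE 0.13, edgeR adjusted p = 0.0174). C4b rose with JMJD1A(WT) against LacZ by 1.63 (SE 0.08, edgeR adjusted p = 4.22e-18) and C3 by 0.62 (SE 0.035, edgeR adjusted p = 1.88e-18), and both fell with JMJD1A(H1122A) against JMJD1A(WT), by 1.61 and 0.81. Masp1, a protease of the lectin pathway, fell by 0.33 with JMJD1A(WT) against LacZ (edgeR adjusted p = 0.00266) and rose by 0.60 with JMJD1A(H1122A) against JMJD1A(WT) (edgeR adjusted p = 4.31e-08).

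Of 22 genes that modify, fold or export collagen, the step at which Serpinh1 acts, 21 were tested. In sh-Jmjd1a cells 6 rose and 5 fell, beside 22.3% and 23.9% of all genes, with a median of -0.01 beside -0.003 over all genes. Plod2, a lysyl hydroxylase of collagen, rose by 1.16 (SE 0.061, edgeR adjusted p = 3.04e-15) and P4ha3, a prolyl hydroxylase subunit, by 1.28 (SE 0.17, edgeR adjusted p = 5.67e-07), while P3h1, a prolyl 3-hydroxylase, fell by 0.34 (SE 0.055, edgeR adjusted p = 9.87e-06). With JMJD1A(H1122A) against JMJD1A(WT) 8 rose and 3 fell, beside 12.1% and 11.7% of all genes, P4ha2 rising by 0.40 (SE 0.052, edgeR adjusted p = 4.68e-08). With JMJD1A(WT) against LacZ 3 fell, beside 4.52%, Fkbp14 by 0.22 (edgeR adjusted p = 0.0319) and Fkbp10 by 0.19 (edgeR adjusted p = 0.000753), both prolyl isomerases, with P4ha2.

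The members did not share a single pattern over the 15 libraries. As a description, with no test, Pearson's r of log2 CPM was 0.96 between Serpinf1 and Serpinh1, 0.92 between Serpinf1 and Serpinb6a and 0.86 between Serpinb6a and Plat, but -0.16 between Serpine2 and Serpinf1 and -0.40 between Serpine2 and Plat. Serpine2 and Serpina3n, both low with JMJD1A(H1122A), had an r of 0.63. The libraries fall into 5 groups, so these values mostly restate the group means. Among about 10107 other genes, the ones most like Serpine2 were Adamts2 (r = 0.931), a procollagen protease, Gja1 (0.901), the gap junction gene of connexin 43, and Hspa9 (0.861). Those most like Serpina3n were Igfbp5 (0.939), Pkd2 (0.933) and Pappa2 (0.932), those most like Serpinf1 were Ephb3 (0.987), Grn (0.985) and Anxa1 (0.985), and those most like Plat were Anxa4 (0.94), Fam219a (0.934) and Ssbp2 (0.933). Serpinh1 was most like App (0.985), Arhgap24 (0.98) and Thra (0.979), and Serpinb6a most like Tpm4 (0.97), Scpep1 (0.966) and Cdkn1b (0.961). Plaur was most like Ssna1 (0.948), Tagln2 (0.89) and Gpt2 (0.877). The matches of Plau were the weakest listed, Zfp40 (0.83), Enpp4 (0.809) and Spdl1 (0.799).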

How the data were processed

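RNA-seq counts of 15 libraries were analysed. Per the submitters' processing notes and the methods, the authors used fastp for trimming, HISAT2 for alignment to mm9 and featureCounts for counting by Entrez Gene number, and deposited raw counts that were not normalized. The methods name a directional kit and the labels an NEBNext Ultra kit, and the strand setting is not given in the sources used here. Symbols came from a RefSeq table (GRCm38.p6, used for names alone), and gene positions and exons came from GENCODE M1, annotated on the mm9 assembly.

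The model was edgeR 4.0.16 under R 4.3.3 (TMM, filterByExpr with a minimum count of 10, robust quasi-likelihood F test, Benjamini-Hochberg over all genes at 0.05). Separate fits were made for the 6 libraries with or without the hairpin and for the 9 rescue libraries, and the difference between sets came from 1 fit of 15 libraries. CPM used TMM factors over all 15 libraries, and CPM per kb the union of GENCODE exons. Replicates differed by more than sampling noise (chi-square per degree of freedom 2.071 to 5.436), and totals of 11437058 or more left precision lowest for Plau and Plaur. The fits were tested on simulated data.

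Members and lists were chosen with earlier results of these data known. Genes named are the members, Kdm3a, up to 2 genes per list, comparison and direction with the largest change among those with adjusted p under 0.05, at least 5 CPM and no overlap, and the 3 genes most like each member. Genes named outside this rule, such as Plg, F13a1, F2, F2r, Mia3, P4ha2 with JMJD1A(WT), the neighbours of Serping1 and the less abundant serpins, were chosen after their values were seen. Alternatives were RLE size factors, DESeq2 1.42.0, no filter, all libraries in 1 fit, the legacy method, a replicate block, and each library left out. Results for some genes are withheld and not reported here.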

Additional observations from a re-analysis of the deposited data

Results flagged for a closer look

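For 6 members the difference between JMJD1A-low and JMJD1A-present cells was not the same in the knockdown set as in the rescue set, by a test of that difference that called 17% of all genes in the same direction. The knockdown difference exceeded the rescue difference by 2.01 on the log2 scale for Serpina3n, 0.74 for Serpinf1, 0.49 for Plat, 0.46 for Serpine2, 0.33 for Serpinb6a and 0.15 for Serpinh1. The call of Serpine2 was lost with no filter, with DESeq2 and in 7 of 15 fits that left out a library, and that of Serpinh1 in 1 of 15. The test of Serpine2 also uses the LacZ libraries that entered its selection. Serpina3n differed in sign, since it rose both in the knockdown and on adding back JMJD1A(WT). The remaining knockdown of Kdm3a, the level of the introduced JMJD1A and the second vector differ between the sets, and their part was not tested.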

How the results depend on the processing

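No called fold change of a member turned its direction under any alternative run. Values that had not passed the test did, with adjusted p of 0.702 or more throughout: Plaur with JMJD1A(H1122A) against JMJD1A(WT), 0.02 at first, gave -0.01 with the legacy method, -0.01 with the replicate block, -0.02 with DESeq2, and ran from -0.18 to 0.13 as each library was left out, negative without replicate 3 of either group. Leaving out libraries in turn gave Plau -0.26 to 0.56 in the knockdown and -0.02 to 0.81 for the difference between sets, both negative without sh-Jmjd1a replicate 3, and gave Plat -0.12 to 0.04 with JMJD1A(WT) against LacZ, positive without LacZ replicate 2. Of the alternatives other than leaving out a library, 225 comparisons of a value with its main value kept direction and call, 2 lost a call, 2 gained one and 3 turned sign. The count of members called lower with JMJD1A(WT) against LacZ ran from 0 to 1 when each library was left out, with 0 without LacZ replicate 2 or 3 or JMJD1A(WT) replicate 1 or 3, where Serpinh1 had adjusted p of 0.0609 to 0.0689. Over the whole table, genes called higher with JMJD1A(H1122A) against LacZ fell from 600 to 380 without LacZ replicate 3 and to 348 without JMJD1A(H1122A) replicate 1, and those called lower from 560 to 326 without the latter. The difference between sets for Serpine2 lost its call with no filter (0.44, adjusted p = 0.0749), with DESeq2 (0.46, adjusted p = 0.0577), and when replicate 1 or 3 of sh-Empty, 2 of sh-Jmjd1a, 1 or 2 of LacZ, or 1 or 2 of JMJD1A(WT) was left out (0.39 to 0.46). That for Plaur passed with the legacy method (0.86, adjusted p = 0.0433), with DESeq2 (0.87, adjusted p = 0.0499), and when replicate 3 of sh-Empty, 3 of sh-Jmjd1a, 2 of LacZ or 3 of JMJD1A(WT) was left out (0.90 to 1.04), and that for Serpinh1 was lost without sh-Jmjd1a replicate 1 (0.12, adjusted p = 0.0638). The causes were not tested beyond the smaller number of libraries. Same-numbered libraries showed little shared deviation (correlations of deviations -0.091 to 0.098 over 10212 genes). With the replicate block 7 members were still called higher in sh-Jmjd1a cells, and it changed no other member's call. Over the whole table the block moved the genes called higher from 1517 to 1673 with JMJD1A(H1122A) against JMJD1A(WT). In the knockdown it moved them from 2741 to 2635.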
